A study of Homo sapiens with 2 samples.

Results

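Immediate early genes and the phosphatases that switch off mitogen-activated protein kinases (MAPK) were examined in steatotic HepG2 cells with and without 9-cis-retinoic acid (9-cis-RA). The set has 10 genes, listed by name among the 60623 gene entries of the count tables. It holds FOS, FOSL1, JUN and JUNB of the AP-1 family, EGR1, MYC, and the dual specificity phosphatases DUSP1, DUSP4, DUSP5 and DUSP6. HepG2 is a human hepatocellular carcinoma line, here labelled as wild type. Mutations that the line itself carries were not examined. All cells were loaded for 24 h with 1 mM free fatty acids (FFA), oleic and palmitic acid at a ratio of 2 to 1 bound to albumin. The FFA group received nothing further that the labels name. The FFA + 9-cis-RA group had 10 μM 9-cis-RA as well, an agonist of the nuclear receptors RXR and RAR. By the study's methods FFA-treated cells then had 9-cis-RA for 24 h, while its figure legends describe co-treatment. Neither library was taken minutes after the drug, so an immediate response to it was not measured. Solvent was matched between groups by the study's methods. Each group has 1 library, both from the same labelled batch, so there is no replicate check and no test. How many cultures went into a library was not stated, and cells without FFA were not analysed here.

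Immediate early genes are switched on within minutes of a stimulus, from factors already present in the cell, and their messenger RNAs are short-lived. Signals through the ERK, JNK and p38 kinases reach their promoters, and the proteins they encode (the FOS and JUN partners of AP-1, the zinc finger protein EGR1, and MYC) then act on later genes. Several MAPK phosphatases are themselves induced by these kinases and close a feedback loop by removing the activating phosphates. In liver several of these genes are known for their induction at the start of regeneration.

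The libraries held 60821539 counted fragments for FFA and 57669670 for FFA + 9-cis-RA. CYP26A1, a retinoid response gene used to check the treatment label, had 4 and 709 counts. Of the cell type markers, 7 hepatocyte genes ranged from 5.61 to 4844 CPM (counts scaled to the library total) in FFA and from 4.82 to 5139 CPM in FFA + 9-cis-RA, with sums of 15344 and 12392 CPM. The 8 markers of blood, endothelial, mesenchymal and biliary cells summed to 23.9 and 16.5 CPM, and PTPRC, the defining leukocyte marker, had 0 counts in both, which allows up to 0.0493 and 0.0520 CPM. Both marker sums were lower with 9-cis-RA, but the markers did not share a direction. Of the hepatocyte genes 5 had lower levels, led by AFP (log2 difference -0.99) and ALB (-0.70), while APOA1 and SERPINA1 were slightly higher at 0.039 and 0.036, and the median went from 1796 to 1909 CPM. In the other set ACTA2, with 1186 and 773 counts, made up most of the sum, and the macrophage marker CD68 had 5 and 15 counts. CD68 shares 81.6% of its exonic bases with another gene on its strand, and ACTA2 13.5%. Reads there were not counted, so the counts of both may be too low. The part of these markers in the results below was not tested. Each difference is given as log2FC, the log2 of the FFA + 9-cis-RA level over the FFA level, from normalized counts (counts divided by size factors) plus a pseudocount of 1. The limits after it are its exact 95% bounds for counting error only, and concern the libraries rather than the treatments. In bulk RNA, a change in the number of cells that express a gene and a change in RNA per cell cannot be told apart.

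The set split. With 9-cis-RA, FOS, JUN, EGR1 and DUSP1 had higher levels, DUSP6, JUNB and FOSL1 had lower ones, and MYC, DUSP5 and DUSP4 stood closer to 0. FOS alone of the 10 was past 1 upward on the log2 scale, and none was below -1. Over all 20431 genes with at least 10 counts, 3.37% were above 1 and 4.9% below -1. The counting interval lay above 0 for 5 of the 10 and below 0 for 3, against 22.5% and 25.7% of all compared genes. Since the interval narrows with depth, the 13306 genes that reached a normalized count of 100 in either library are the closer background, and there 30.9% lay above 0 and 33.5% below. In that background 0.481% of genes were above 1, and 9 of the 10 genes belong to it. A 1.5-fold threshold, chosen after the values were seen, was passed upward by FOS, JUN, EGR1 and DUSP1 and downward by none. It was passed upward by 7.45% of all compared genes and 2.06% of the deeper ones, and downward by 12% and 5.48%. The median log2FC of the 10 genes was 0.14, with values from -0.48 to 1.15, beside a median of -0.020 over all compared genes.

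**Figure D1:**
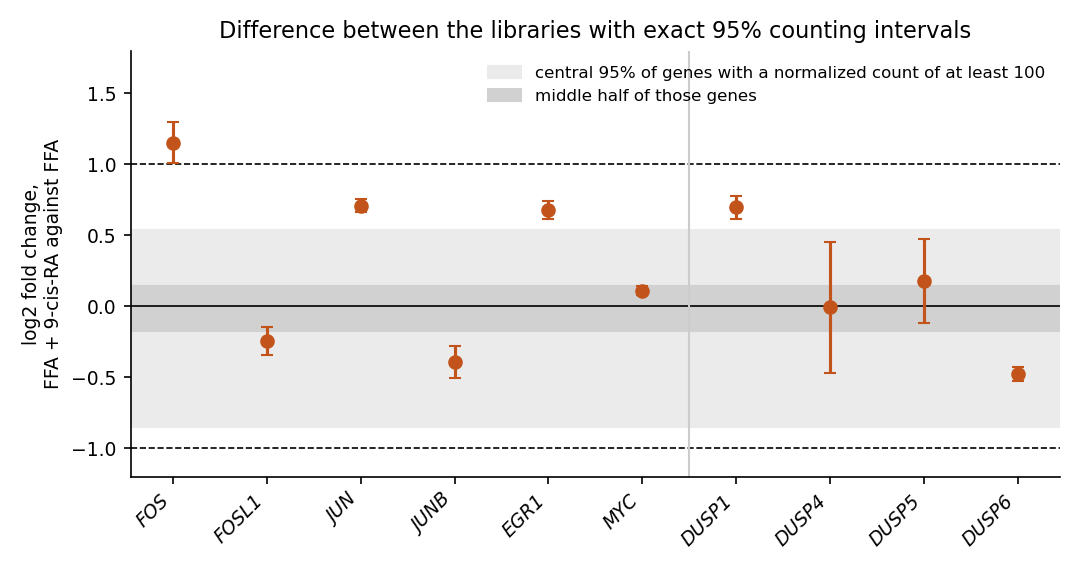
The log2 fold change of each gene (points, FFA + 9-cis-RA against FFA, 1 library per group) with its exact 95% counting interval (bars), over the quartile range (dark band, -0.18 to 0.14) and the central 95% (light band, -0.85 to 0.54) of the 13306 deeper genes. FOS, JUN, EGR1 and DUSP1 lie above the light band, and the other 6 genes lie inside it.

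FOS encodes the founding member of the FOS family, which must pair with a JUN protein to bind DNA. It maps to chromosome 14, bases 75278826 to 75282230, in GRCh38 coordinates as all positions here. FOS had 573 counts without 9-cis-RA and 1248 with it. After scaling, the treated library held 2.22 times the other (log2FC 1.15, limits 1.01 and 1.30). Of all compared genes, 2.34% had a higher value.

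JUN, EGR1 and DUSP1 differed between the libraries by nearly the same factor. JUN, the main AP-1 partner of FOS, maps to chromosome 1, bases 58780791 to 58784047, with 6877 and 11034 counts (log2FC 0.71, limits 0.67 and 0.75). EGR1, a zinc finger activator on chromosome 5, bases 138465479 to 138469303, had 3244 and 5087 counts (log2FC 0.68, limits 0.61 and 0.74). DUSP1 encodes a nuclear phosphatase that acts mainly on p38 and JNK. It maps to chromosome 5, bases 172768096 to 172771195, with 2060 and 3277 counts (log2FC 0.70, limits 0.62 and 0.78). The linear folds were 1.64, 1.60 and 1.62. Ratios between genes of a library need no scaling. The JUN to EGR1 ratio went from 2.12 to 2.17 in counts, a log2 change of 0.033 (95% interval -0.044 to 0.11). The JUN to DUSP1 ratio changed by 0.012 (95% interval -0.078 to 0.10) and the DUSP1 to EGR1 ratio by 0.021 (95% interval -0.081 to 0.12). Counting error therefore covers the differences among the 3 genes, while the FOS to JUN ratio changed by 0.44 (95% interval 0.29 to 0.59). The 3 genes were set side by side because their values were close, so nearly constant ratios follow from that choice.

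**Figure D2:**
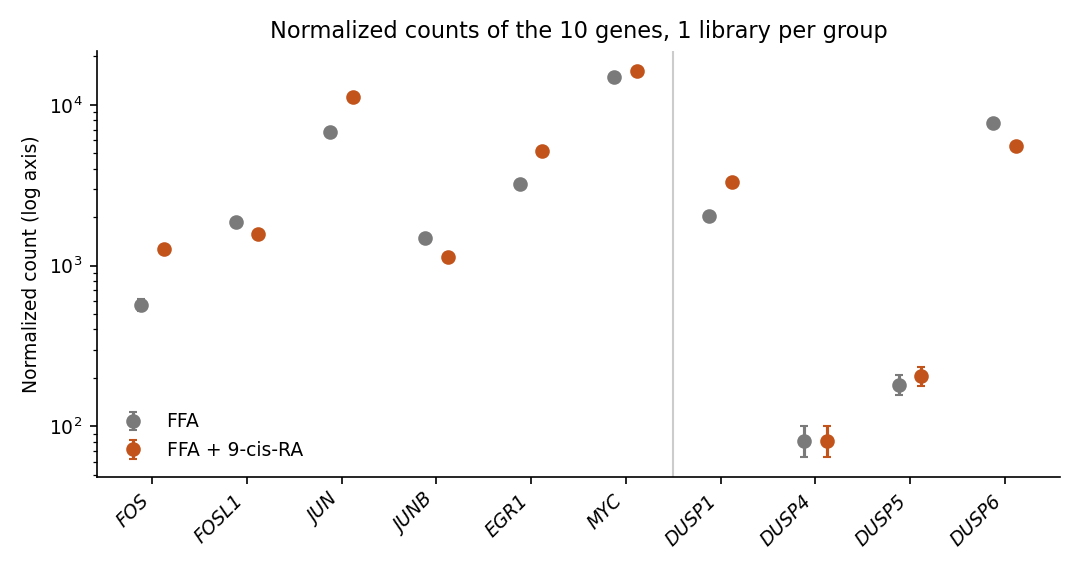
Normalized counts of the 10 genes (log axis) in the FFA library (grey) and the FFA + 9-cis-RA library (orange), 1 library per group, with exact 95% Poisson intervals as bars, which are smaller than the points for the deeper genes. The AP-1, EGR1 and MYC genes stand left of the line and the phosphatases right of it, and the orange point is clearly above the grey one for FOS, JUN, EGR1 and DUSP1.

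The bases before the start sites of these 4 genes are shown because they differed in the same direction and their promoters are textbook cases of signal response. They come from RefSeq promoters of GRCh38.p14, written 5′ to 3′ on the strand of the gene. Capitals mark matches to the CArG box (the serum response factor motif, given by name), the cyclic AMP response element (CRE) TGACGTCA, its half-site TGACG, the E-box CACGTG and the TATA box TATAAA. The EGR1 stretch is chr5:138465334-138465478 on the plus strand, the FOS stretch chr14:75278678-75278825 on the plus strand, the JUN stretch chr1:58784048-58784197 on the minus strand, and the DUSP1 stretch chr5:172771196-172771375 on the minus strand.
EGR1: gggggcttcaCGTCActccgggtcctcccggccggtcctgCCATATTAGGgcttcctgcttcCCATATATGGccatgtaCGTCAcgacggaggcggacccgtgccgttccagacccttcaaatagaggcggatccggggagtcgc
FOS: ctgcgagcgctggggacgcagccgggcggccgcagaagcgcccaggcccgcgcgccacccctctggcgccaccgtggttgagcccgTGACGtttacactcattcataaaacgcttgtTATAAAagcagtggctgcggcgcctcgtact
JUN: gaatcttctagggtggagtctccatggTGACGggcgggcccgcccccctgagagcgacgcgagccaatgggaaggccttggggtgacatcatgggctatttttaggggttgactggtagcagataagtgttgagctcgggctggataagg
DUSP1: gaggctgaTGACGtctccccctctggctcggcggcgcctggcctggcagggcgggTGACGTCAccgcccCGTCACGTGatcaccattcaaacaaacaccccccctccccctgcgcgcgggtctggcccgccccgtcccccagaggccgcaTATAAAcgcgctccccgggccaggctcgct

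Promoter windows from 250 bases before the start to 50 after were matched for 6 of the 10 genes, and FOSL1, MYC, DUSP4 and DUSP5 had no entry. On either strand, the CRE half-site was found in 5 of the 6 (FOS, EGR1, JUN, DUSP1 and JUNB) and in 24.6% of all 35116 promoters of that length. The half-site and the TATA box were added to the search after sequences were seen, so their counts are not a test of enrichment. The full CRE was found in DUSP1, starting 125 bases before the start, and in 1.85% of promoters. Its 8 bases contain 2 of the 4 half-site matches of DUSP1. EGR1 held 2 CArG boxes, 105 and 83 bases before the start, a motif in 1.29% of promoters. No other window of the 6 held this motif. Sites further than 250 bases before the start were not searched, for FOS or any other gene. The E-box was in DUSP1 alone of the 6, overlapping a half-site, and in 7.26% of promoters. The TATA box, searched on the strand of the gene only, was in FOS, DUSP1 and JUNB and in 7.33% of promoters. The AP-1 site TGANTCA and the ETS core CCGGAA, in 7.71% and 17.2% of promoters, were in none of the 6 windows. Only these exact patterns were searched. Near matches, such as tgacatca in the printed JUN stretch, and the shorter ETS core GGAA were not counted. The windows are thus not shown to lack AP-1 or ETS sites. The half-site was shared by the 4 genes that were higher and by JUNB, which was lower.

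**Figure D3:**
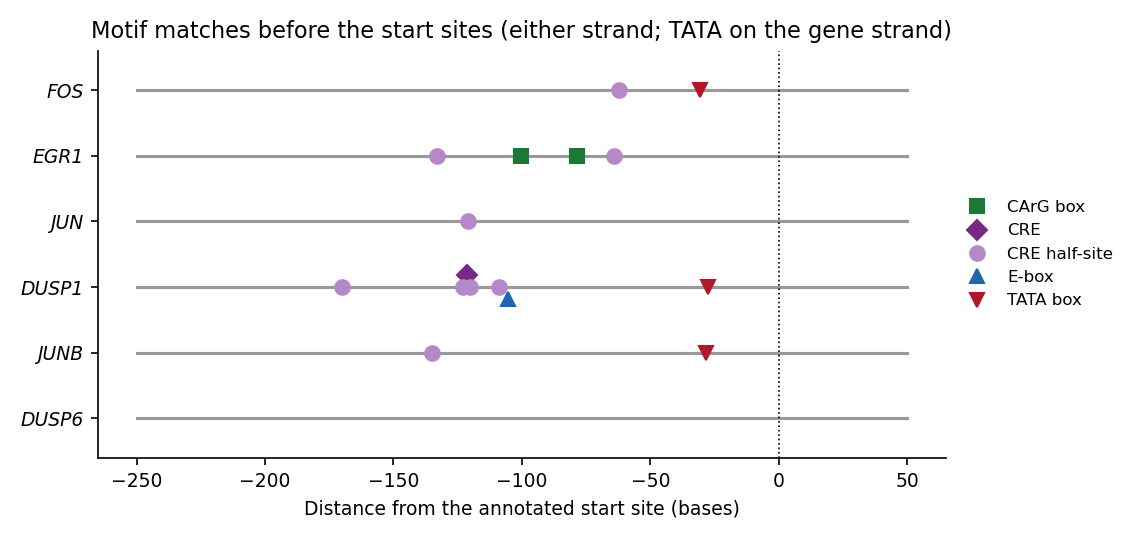
Motif matches along the promoter windows of 6 genes, by distance from the annotated start site in bases (0, dotted line). FOS, EGR1, JUN, DUSP1 and JUNB each hold at least 1 CRE half-site, EGR1 holds the 2 CArG boxes, and DUSP6 holds no match. Sites further than 250 bases before the start were not searched.

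DUSP6, JUNB and FOSL1 had lower counts in the FFA + 9-cis-RA library. DUSP6 encodes the cytoplasmic phosphatase specific for ERK and is a common readout of ERK activity. It maps to chromosome 12, bases 89347235 to 89352501, with 7758 and 5467 counts (log2FC -0.48, limits -0.53 and -0.43). JUNB, a JUN paralog that activates AP-1 sites more weakly than JUN, maps to chromosome 19, bases 12791486 to 12793315, with 1489 and 1115 counts (log2FC -0.39, limits -0.50 and -0.28). FOSL1 encodes FRA-1, a FOS relative without the strong activation domain of FOS, and maps to chromosome 11, bases 65892049 to 65900573. It had 1889 and 1566 counts (log2FC -0.24, limits -0.34 and -0.15). All 3 were inside the central 95% of the deeper genes. The direction thus differed within each gene class of the set. The DUSP1 to DUSP6 ratio went from 0.266 to 0.599 in counts, a log2 change of 1.17 (95% interval 1.08 to 1.27). The JUN to JUNB ratio went from 4.62 to 9.90, a log2 change of 1.10 (95% interval 0.98 to 1.22), and the FOS to FOSL1 ratio from 0.303 to 0.797, a log2 change of 1.39 (95% interval 1.22 to 1.57). Each of these ratios sets a gene that was higher against one that was lower, so a rise follows from that choice.

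MYC, DUSP5 and DUSP4 differed least. MYC, the helix-loop-helix activator of growth genes, maps to chromosome 8, bases 127735434 to 127742951, with 15129 and 16028 counts (log2FC 0.11, limits 0.079 and 0.14). At that depth the interval excludes 0, although 32.2% of all compared genes had a higher value. DUSP5 encodes a nuclear ERK phosphatase and maps to chromosome 10, bases 110497907 to 110511533, with 183 and 203 counts. Its log2FC was 0.18, with 0 inside the limits of -0.12 and 0.47. DUSP5P1, a pseudogene of DUSP5, had 154 and 86 counts, and reads that map to both places were not counted. DUSP4, a nuclear phosphatase for ERK and JNK on chromosome 8, bases 29333064 to 29350684, had 82 and 80 counts. Its log2FC was -0.0079 (limits -0.47 and 0.45), so a difference smaller than that was not detectable at this depth.

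Levels per exonic length, in TPM (length-scaled and set to 1 common sum per library), spanned from 157 for MYC to 0.537 for DUSP4 in the FFA library. The order there was MYC, JUN at 101, DUSP6 at 95.8, EGR1 at 49.3, DUSP1 at 48.8, FOSL1 at 47.7, JUNB at 38.8, FOS at 8.57, DUSP5 at 3.44 and DUSP4. The Poisson intervals of EGR1 and DUSP1 overlapped, as did those of DUSP1 and FOSL1, and no other neighbours did. In the FFA + 9-cis-RA library MYC had 181 TPM and JUN 175 TPM, and the intervals of these 2 levels overlapped. DUSP1 at 84.2 TPM and EGR1 at 83.8 TPM also could not be told apart there, and both stood above DUSP6 at 73.3 TPM. FOSL1 at 42.9, JUNB at 31.5, FOS at 20.3, DUSP5 at 4.14 and DUSP4 at 0.569 TPM kept their places. FOS, which had the largest difference of the 10, thus took the eighth place by level in both libraries. The exonic length joins the exons of all annotated transcripts, which lowers the level of genes with long minor transcripts.

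Within the FOS family, the share of FOS was higher with 9-cis-RA and that of FOSL1 lower. FOS made up 12.8% of the summed count per length of FOS, FOSB, FOSL1 and FOSL2 without 9-cis-RA (95% interval 11.8 to 13.9) and 27.1% with it (95% interval 25.8 to 28.5). FOSL1 went from 71.5% (95% interval 70.2 to 72.8) to 57.4% (95% interval 55.9 to 59.0) and stayed the main member. FOSL2, the gene of FRA-2, held 13.7% and 13.8%, with 1376 and 1433 counts. FOSB had 151 and 130 counts, under 2% of the family. These intervals use the Poisson error of the counts, and raw counts without length gave FOS 14.4% and 28.5% and FOSL1 47.4% and 35.8%.

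In the JUN family, JUND, the member that is expressed most evenly across conditions, was the largest in both libraries at 51.4% and 48.3%. JUN went from 35.1% (95% interval 34.3 to 35.8) to 43.8% (95% interval 43.1 to 44.5) and JUNB from 13.5% (95% interval 12.9 to 14.2) to 7.88% (95% interval 7.44 to 8.31). By raw counts JUN was the largest, at 48.0% and 57.0%. JUND itself had 5965 and 7214 counts (log2FC 0.30, limits 0.25 and 0.35). MYC was 98.2% and 99.4% of the MYC family. MYCN, its neural paralog, had 153 and 45 counts (log2FC -1.72, limits -2.25 and -1.25), and MYCL had 14 and 22 counts.

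The 10 catalytically active MAPK phosphatases were led by a gene outside the set. DUSP9, a cytoplasmic ERK phosphatase, had 45440 and 57381 counts, or 76.2% and 80.9% of the family per length, and a log2FC of 0.36 (95% interval 0.35 to 0.38). DUSP6 went from 9.34% (95% interval 9.14 to 9.54) to 5.53% (95% interval 5.38 to 5.67), and DUSP1 from 4.75% (95% interval 4.56 to 4.95) to 6.35% (95% interval 6.14 to 6.56). The cytoplasmic ERK phosphatases did not share a direction, with DUSP9 higher and DUSP6 lower. DUSP7 had 2001 and 1815 counts with a log2FC of -0.11 (95% interval -0.21 to -0.021). Of the phosphatases for JNK and p38, DUSP16 had 9928 and 8489 counts (log2 fold change -0.20, 95% interval -0.24 to -0.16), while DUSP8 with 1139 and 1127 counts and DUSP10 with 69 and 91 counts had intervals that included 0. DUSP8 has pseudogene copies, one of which, DUSP8P5, had 90 and 119 counts. DUSP2 had 1 count in each library. DUSP4 and DUSP5 together held under 1% of the family.

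**Figure D4:**
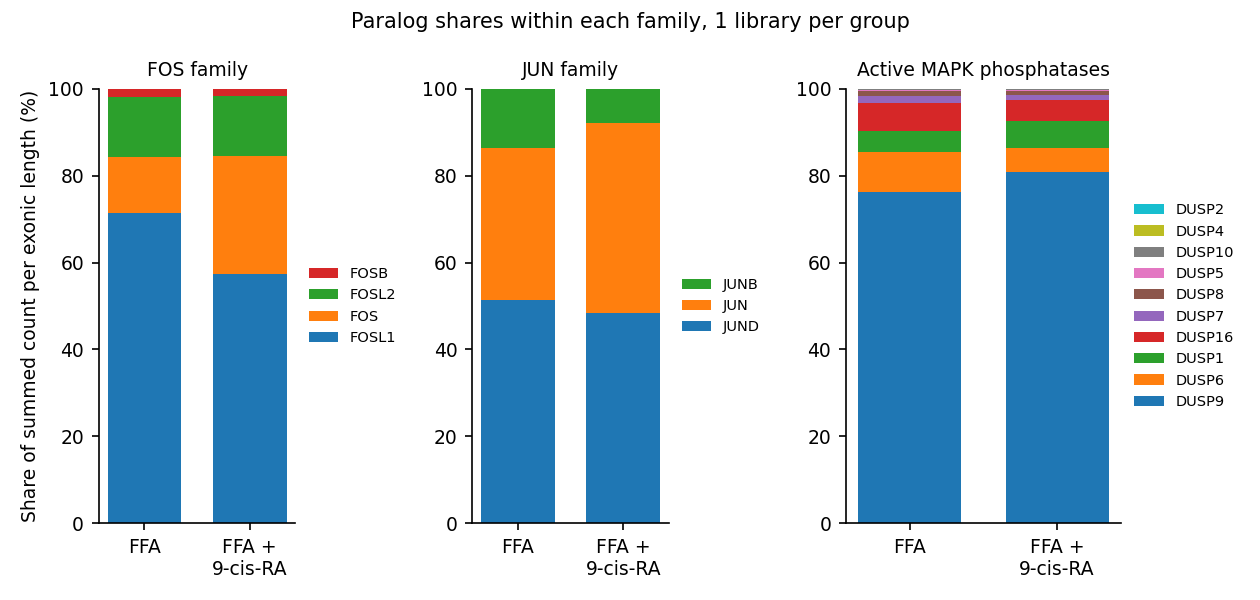
Share of each paralog in the summed count per exonic length of its family (percent, stacked bars from 0 to 100) in the FFA and FFA + 9-cis-RA libraries, 1 library per group. FOS widens from 12.8% to 27.1%, JUNB narrows from 13.5% to 7.88%, and DUSP9 fills 76.2% and 80.9% of the phosphatase bars.

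A list of 32 other immediate early genes, FOSB, FOSL2 and JUND among them, held 31 with at least 10 counts. Their counting intervals lay above 0 for 15 and below 0 for 7, beside 30.9% and 33.5% of the deeper genes and 22.5% and 25.7% of all compared genes, and the median log2 fold change was 0.13. The same shares are the background for the list counts that follow. Past 1 there was a single gene, KLF2, a Krüppel-like factor with 14 and 68 counts (log2FC 2.23, limits 1.46 and 3.25), which is named because it was the only such gene, after its values were seen. Over all compared genes 3.37% were above 1 and 4.9% below -1, which is also the background for later counts past 1. Among list genes that reached a normalized count of 100 in either library, KLF4 was highest at 0.95 (95% interval 0.51 to 1.42), from 63 and 120 counts. CCN2 was lowest at -0.71 (95% interval -0.82 to -0.61), from 1936 and 1160 counts. KLF4 reached 100 only in the FFA + 9-cis-RA library, where it was higher, so its place depends on that difference. KLF10, which reached 100 in both libraries, had 4282 and 6479 counts (log2FC 0.62, limits 0.57 and 0.68). KLF4 encodes another Krüppel-like factor, and CCN2 a matricellular protein also known as connective tissue growth factor. At the 1.5-fold threshold, 5 of the 31 genes were higher and 1 was lower, beside 7.45% and 12% of all compared genes and 2.06% and 5.48% of the deeper ones. The higher genes were KLF2, KLF4, KLF10, NR4A2 and NR4A3. NR4A2 had 30 and 46 counts, with 0 inside its limits of -0.050 and 1.36, and NR4A3 had 23 and 46 counts. KLF2, NR4A2 and NR4A3 stayed below a normalized count of 100 in both libraries, so the deeper share does not apply to them. SRF, which encodes the factor that binds CArG boxes, had 4795 and 4481 counts (log2FC -0.070, limits -0.13 and -0.011). Of its list with the ternary complex and MRTF cofactors, 6 genes compared, 2 lay above 0, 2 below and 2 included 0, with MRTFA highest at 0.40 and ELK1 lowest at -0.23. MRTFA shares 5.94% of its exonic bases with another gene on its strand, and reads there were not counted.

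The ERK feedback and output genes included values on both sides of 0. Of 17 listed genes 15 were compared, 7 had an interval above 0 and 5 below, the latter a share close to the 33.5% of the deeper genes, and their median was 0.082. ERRFI1, an inhibitor of the EGF receptor, had 7887 and 12474 counts (log2FC 0.69, limits 0.65 and 0.73), close to that of JUN, EGR1 and DUSP1. CCND1, the cyclin D1 gene, had 12598 and 9327 counts (log2FC -0.41, limits -0.44 and -0.37), close to that of JUNB. SPRED3 was the single gene past 1, with 70 and 20 counts (log2FC -1.73, limits -2.58 and -1.05), and was named after its values were seen. Of all compared genes, 4.9% were below -1. Of the Sprouty feedback inhibitors that ERK induces, SPRY2 with 1371 and 1276 counts and SPRY4 with 3987 and 3881 counts had intervals that included 0. SPRY1, with 1093 and 952 counts, had an interval below 0 (log2FC -0.17, limits -0.30 and -0.045). The ETS factor genes ETV4 and ETV5 had log2 fold changes of -0.094 and 0.22.

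The MYC partner and target lists had medians near 0. Of 11 partners and antagonists, 5 had an interval above 0 and 3 below, with a median of 0.056. MAX, the obligate partner of MYC, had 2401 and 2509 counts, a log2FC of 0.091. MXI1, which competes with MYC for MAX, was lowest at -0.54 (95% interval -0.68 to -0.40), from 1028 and 694 counts, and MLXIP highest at 0.32. Among 17 MYC target genes the interval lay below 0 for 12 and above 0 for 2, with a median of -0.098, and none passed 1. Of the deeper genes, 33.5% lay below 0 and 30.9% above. CDK4, a cell cycle kinase gene, was lowest at -0.41, and TERT, the telomerase subunit gene, had -0.32. Most of these targets are counted deeply, so intervals exclude 0 at small differences: NCL at 124447 and 112538 counts had a log2FC of -0.12.

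**Figure D5:**
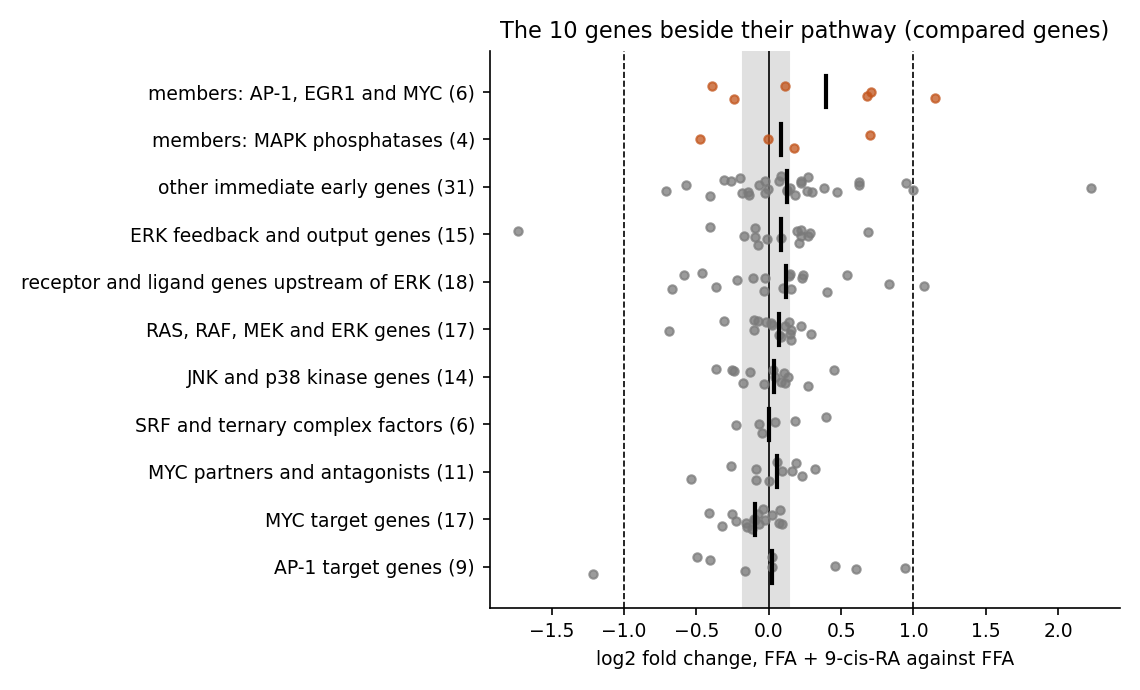
The log2 fold change (FFA + 9-cis-RA against FFA) of each compared gene (points) in the set (orange) and in lists of its pathway (grey), with list medians as black bars, the number of genes in brackets, and the grey band marking the quartile range of the deeper genes. List medians other than that of the AP-1, EGR1 and MYC genes (0.39) lie between -0.098 and 0.13.

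The 10 genes are compact. Their spans ran from 1830 to 17621 bases with a median of 4546, against a median of 30806 for the 13734 protein-coding genes compared, of which 66.1% were longer than the longest of the 10. JUN and JUNB have 1 exon and no gene of the set has more than 6 merged exons, against a median of 11. None shares exonic bases with another gene on its strand. In the 3′ untranslated regions of GENCODE transcripts, matched for 9 of the 10 (not MYC), the AU-rich pentamer ATTTA, an element of short-lived messengers, occurred 6.20 times per kb in FOS and 5.95 in DUSP1. These were above 94.4% and 93.7% of 17960 genes, whose median was 1.55 per kb. JUNB came next with 2 in 500 bases, a density above that of 83.8% of genes and higher than in JUN at 2.33 per kb and EGR1 at 0.810 per kb. DUSP4 had 1.51 and DUSP6 0.495 per kb, FOSL1 had 1 in 666 bases, and DUSP5 had 0 in 1118. The pentamer density thus differed widely among FOS, JUN, EGR1 and DUSP1. ATTTA was added after sequences were seen, so these densities are not a test of enrichment.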

How the data were processed

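RNA was sequenced from 2 HepG2 cultures or pools, 1 library per group, with poly(A) selection and a stranded kit. The deposited files hold raw counts for each gene. Per the file headers they come from featureCounts 2.0.1, which kept pairs mapped at both ends and of accepted fragment length, counted on the reverse strand (setting 2). By default reads on several genes or places are not counted. The build per the labels is GRCh38, and the aligner and annotation release are not given in the sources used here.

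Symbols were matched for 60295 of 60623 entries. Scaling used the size factors of DESeq2 (1.42.0) or, as an alternative, the TMM factors of edgeR (4.0.16), both under R 4.3.3. Other steps used Python 3.11.15, scipy 1.17.1 and statsmodels 0.14.6. Genes with at least 10 counts were compared, with a pseudocount of 1 and a threshold of 1, and floors are 3 counts. Intervals are exact Clopper-Pearson (fold changes), exact Poisson (levels), and normal approximations from Poisson errors (ratios, and shares, since a per-length share is no single binomial). All cover counting error only. Since PCR reads are not independent molecules, even that error can be larger than the intervals show. With 1 library per group there is no test and no p-value. The steps were tested on simulated data. Named genes are the 10, their paralogs, and per list the genes reaching a normalized count of 100 in either library and past 1. Where fewer than 2 pass, the 2 with the largest difference are named. Other list genes were named for context after their values were seen. The genes and lists were chosen with earlier results of these data known. The CRE half-site, the TATA box and ATTTA were added after sequences were seen. Alternatives were TMM, total counts, pseudocounts of 0.1 and 5, minimums of 0 and 50 counts, loess trends (span 0.3), the whole interval past 1 and a 1.5-fold threshold.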

Additional observations from a re-analysis of the deposited data

How the results depend on the processing

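The counts past 1 in either direction were the same under the scalings, pseudocounts, count minimums, trends and the whole interval past 1. The counts of limits above and below 0 were the same under the scalings and count minimums, and the median of the 10 genes ranged from 0.14 to 0.20. The number above the threshold was 4 at 1.5-fold, an alternative chosen after seeing the data. Of 60 single-gene values under scaling, pseudocount and trend alternatives, 5 left their counting interval. With total counts JUN was 0.76 and MYC 0.16, with the trend on mean expression removed MYC was 0.15, and with the trend on exonic length removed JUN was 0.76 and DUSP1 0.79. FOS ranged from 1.14 to 1.20. DUSP4 was the 1 gene whose sign changed, between -0.034 and 0.085. Per-length shares need the annotated lengths: all 12 shares recomputed from raw counts left their interval. No paired analysis was possible because each group has 1 library. Depth limits DUSP4 and DUSP5, while for the deeper genes the missing replicates are the limit.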

Other observations

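Ligands and receptors that feed the ERK pathway included values on both sides of 0. Of 22 listed genes 18 were compared, 9 had an interval above 0 and 6 below, and the median log2FC was 0.12. Of all genes that reached a normalized count of 100, 30.9% lay above 0 and 33.5% below, which is the background for each list here. HBEGF, an EGF receptor ligand gene, had 244 and 427 counts (log2FC 0.83, limits 0.60 and 1.07). EREG and AREG, ligand genes for the same receptor, went the other way with 1458 and 901 counts (-0.67, 95% interval -0.79 to -0.55) and 523 and 342 counts (-0.58, 95% interval -0.79 to -0.39). The receptor genes EGFR and MET had log2FCs of -0.22 and -0.46, while ERBB2 had 0.41 and ERBB3 had 0.23. FGF19 was the single gene past 1, with 15 and 32 counts (1.07, 95% interval 0.19 to 2.11), and was named after its values were seen. Of all compared genes, 3.37% were above 1 and 4.9% below -1. AREG and the receptors are also named for context.

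Of 17 RAS, RAF, MEK and ERK genes none passed 1, 9 had an interval above 0 and 5 below, and the median was 0.073. RPS6KA3, which encodes the ERK substrate RSK2, was lowest with 51226 and 31114 counts (-0.69, 95% interval -0.71 to -0.67), followed by the adaptor gene SHC1 at -0.31, which shares 7.72% of its exonic bases with another gene on its strand. Of 14 JNK and p38 kinase genes, 6 lay above 0 and 3 below. MAPK8, the JNK1 gene, was highest at 0.45 (95% interval 0.36 to 0.55), and MAPKAPK3, a p38 substrate gene, lowest at -0.36.

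Of 12 genes often described as AP-1 targets 9 were compared. Of these 3 had an interval above 0, a share near the background of 30.9%, and 4 below, and the median was 0.023. HMOX1, the heme oxygenase gene, had 7806 and 14703 counts (0.94, 95% interval 0.90 to 0.98), and PLAU, the urokinase gene, had 176 and 74 counts (-1.21, 95% interval -1.63 to -0.82).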
